A study of Mus musculus with 34 samples.

Results

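The CXC chemokines measured here were 7 genes, Cxcl1, Cxcl2, Cxcl3, Cxcl9, Cxcl10, Cxcl14 and Cxcl16, chosen by their symbols among 52550 genes of the main count table and 25498 of a second, smaller table named batch 1. All 7 were found in both tables, and all 7 passed the filter on low counts in both. RNA was sequenced from macrophages that had been differentiated out of mouse bone marrow over 6 days in 10 ng/ml of the growth factor M-CSF. After a rest of 24 h they received low-density lipoprotein (LDL) at 200 mg/dL, or vehicle alone, for another 24 h. The mice were 10 to 14 weeks old, and their sex is not given in the labels. Every genotype carried Vav-Cre, a recombinase active across blood cells: Dnmt3aKO (Dnmt3a fl/fl;Vav-Cre), Tet2KO (Tet2 fl/fl;Vav-Cre), Jak2VF (Jak2 V617F/WT;Vav-Cre) and WT (Vav-Cre alone). The main set held 3 libraries for each genotype with LDL and 3 with vehicle, 24 in all, and batch 1 held 2 libraries with LDL and 3 with vehicle for each of Tet2KO and WT. Whether libraries within a group stem from different mice is not stated in the labels, and the p-values below rest on the variation among libraries, which may be technical.

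CXC chemokines are small secreted proteins that guide leukocytes, named for a single residue that separates the first pair of conserved cysteines. Cxcl1, Cxcl2 and Cxcl3 bind the receptor Cxcr2 and draw neutrophils, and in macrophages their genes are classical targets of the transcription factor NF-kB. Cxcl9 and Cxcl10 are induced by interferons and bind Cxcr3 on activated T and NK cells. Cxcl14 is a conserved chemokine made by many resting tissues, and Cxcl16 is made as a membrane-spanning protein that binds Cxcr6, takes up oxidised LDL as a scavenger receptor and is released by the protease Adam10.

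The 5 members on chromosome 5 lay within 1562787 bases (GRCm38). Cxcl3 (ENSMUSG00000029379, 90786103 to 90789600), Cxcl1 (ENSMUSG00000029380, 90891241 to 90893115) and Cxcl2 (ENSMUSG00000058427, 90903871 to 90905938) stood on the plus strand in that order, with 101640 and 10755 bases between neighbours. Cxcl9 (ENSMUSG00000029417, 92321347 to 92328079) and Cxcl10 (ENSMUSG00000034855, 92346638 to 92348889) stood on the minus strand 18558 bases apart. Cxcl14 (ENSMUSG00000021508) lay on chromosome 13 at 56288643 to 56296551, and Cxcl16 (ENSMUSG00000018920) on chromosome 11 at 70453983 to 70459984, both on the minus strand. All 7 are protein-coding genes, and counts cover whole genes rather than single exons.

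The promoters of the Cxcr2 ligands, which moved together, and of Cxcl10, which did not move with them, are shown for comparison. Each is the 250 bases before the RefSeq transcription start (GRCm38.p6). Capitals mark matches to a core NF-kB motif (GGG, then any NNN, then TTCC) on either strand, and in Cxcl10 also a match to an interferon-stimulated response element (GAAA, then any NN, then GAAA).
Cxcl1, chr5:90890995-90891244, plus strand: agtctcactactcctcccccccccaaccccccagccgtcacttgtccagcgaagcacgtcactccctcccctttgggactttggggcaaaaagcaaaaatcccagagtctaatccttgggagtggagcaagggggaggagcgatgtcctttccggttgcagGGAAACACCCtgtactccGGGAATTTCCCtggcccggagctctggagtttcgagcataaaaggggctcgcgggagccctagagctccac
Cxcl2, chr5:90903649-90903898, plus strand: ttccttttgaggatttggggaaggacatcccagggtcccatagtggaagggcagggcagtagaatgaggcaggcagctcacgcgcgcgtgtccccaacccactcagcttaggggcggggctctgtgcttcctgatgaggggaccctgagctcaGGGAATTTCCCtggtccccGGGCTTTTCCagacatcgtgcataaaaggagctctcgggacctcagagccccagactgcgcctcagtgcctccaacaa
Cxcl3, chr5:90785851-90786100, plus strand: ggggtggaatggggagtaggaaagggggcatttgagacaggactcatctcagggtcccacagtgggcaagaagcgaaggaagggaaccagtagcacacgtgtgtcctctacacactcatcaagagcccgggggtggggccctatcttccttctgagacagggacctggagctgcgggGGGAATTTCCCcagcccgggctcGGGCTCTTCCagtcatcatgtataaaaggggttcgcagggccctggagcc
Cxcl10, chr5:92348890-92349139, minus strand: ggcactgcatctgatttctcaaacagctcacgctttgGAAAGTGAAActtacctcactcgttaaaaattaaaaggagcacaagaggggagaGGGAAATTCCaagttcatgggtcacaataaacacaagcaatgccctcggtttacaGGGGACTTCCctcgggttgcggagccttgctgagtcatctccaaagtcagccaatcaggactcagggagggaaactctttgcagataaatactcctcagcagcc

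Cxcl1, Cxcl2 and Cxcl3 each held 3 matches to the NF-kB letters, of which 2 overlap on opposite strands of a single run, and the nearest ended 61, 69 and 41 bases before the start. Cxcl10 held 2 such matches, ending 150 and 95 bases before the start, and 1 interferon element ending 204 bases before it. These NF-kB letters occurred in 4.65% of 32851 promoter windows of the same length, and the interferon letters in 2.98%. The window of Cxcl10 also held TGANTCA, an AP-1 motif found in 6.75% of windows, which overlapped a match to TGACNNNGC, an antioxidant response element found in 10.2%. Cxcl14 held 1 interferon element and 1 match to TTCNNNGAA, a gamma-activated site found in 7.02% of windows. None of the 5 motifs was matched in the Cxcl9 window. Between the aligned Cxcl2 and Cxcl3 windows 58.7% of positions were identical, against 44.9% to 52.7% for the other pairs. RefSeq windows were matched for 6 of 7 members, all but Cxcl16, and a match is a run of letters, not a measured binding site.

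Each main library held 24105237 to 43904761 counts in total, and each batch 1 library 15171143 to 44449473. Dnmt3a was lower in Dnmt3aKO libraries than in WT libraries, at 29.0 ± 1.42 against 48.7 ± 8.19 CPM with LDL and 33.95 ± 2.28 against 63.9 ± 8.49 CPM with vehicle (SD, n = 3 each; CPM is a count scaled to its library's TMM-adjusted total). Tet2 was not lower in Tet2KO libraries than in WT libraries of the main set, at 27.0 ± 11.6 against 20.3 ± 8.60 CPM with LDL and 34.8 ± 3.32 against 26.7 ± 6.26 CPM with vehicle (SD, n = 3 each; edgeR adjusted p of 0.622 and 0.568), nor was it called in batch 1. Counts over the whole gene thus give no check of the Tet2KO label, and none of the Jak2VF label, which is a point mutation. All 8 macrophage markers were detected in both the main set and batch 1. Other cell types left transcripts too: stromal markers summed to 8035 to 12299 CPM with LDL and 10805 to 16787 CPM with vehicle in the main set, and neutrophil markers differed between genotypes as given below. In such bulk RNA, fewer cells of a type and less RNA per cell cannot be told apart. Libraries WT LDL 3 and Tet2KO LDL 3 held 83 and 112 counts of Gfap, a brain transcript, against 4 to 18 in the other main libraries.

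Scaled by the longest protein-coding transcript, the largest share of the family's transcripts in the main set was Cxcl3 with LDL and Cxcl16 with vehicle. These shares depend on the length used. For Cxcl3 that transcript has 1016 bases, against 3498 over all annotated exons (2699 and 3021 for Cxcl16). Shares by the length of all exons were not computed. On a scale per length (CPM per kilobase of the longest protein-coding transcript), Cxcl16 made up 5.95% to 16.3% of the summed level of the 7 genes in the 4 main groups with LDL and 44.3% to 60.0% in the 4 groups with vehicle. Cxcl3 made up 44.2% to 52.2% with LDL and 12.4% to 15.04% with vehicle. Cxcl1 had a more even share, 21.2% to 27.6% with LDL and 19.8% to 35.2% with vehicle, and Cxcl2 held 14.0% to 16.7% with LDL and 3.66% to 4.33% with vehicle. The summed level itself was 431 to 961 CPM per kilobase in the 12 LDL libraries and 104 to 207 in the 12 vehicle libraries. Cxcl14 made up at most 4.10% of the sum in any main library, Cxcl9 at most 0.637% and Cxcl10 at most 3.10%. Batch 1 differed: in WT Cxcl16 made up the largest share under both treatments (55.8% with LDL and 71.4% with vehicle, against 13.0% and 3.95% for Cxcl3), and in Tet2KO Cxcl3 and Cxcl16 had near shares with LDL (31.3% and 28.1%), with Cxcl16 at 63.2% with vehicle.

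**Figure D1:**
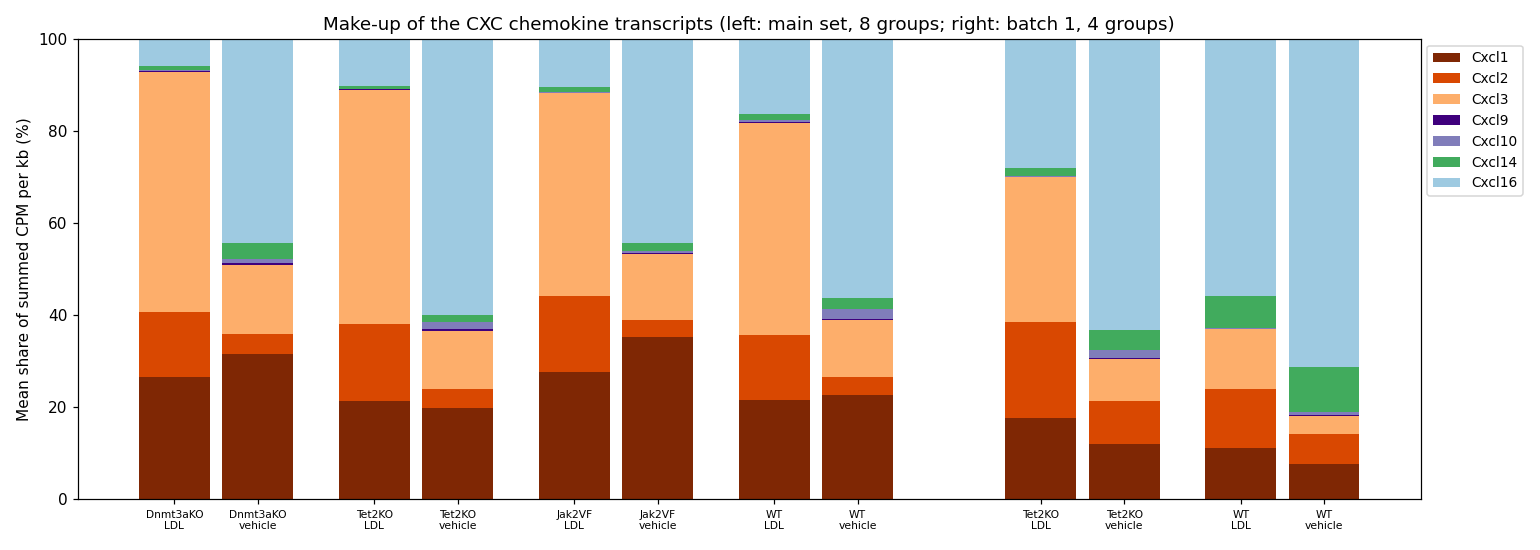
Stacked bars show the mean share (percent) of each of the 7 CXC chemokines in their summed level in CPM per kilobase, for the 8 main groups on the left and the 4 batch 1 groups on the right, LDL before vehicle within each genotype. The length is that of each gene's longest protein-coding transcript. On this scale Cxcl3 is the largest share in each main LDL group (44.2% to 52.2%) and Cxcl16 in each main vehicle group (44.3% to 60.0%).

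The Cxcr2 ligands were the members most strongly raised by LDL, in every genotype of the main set. Across all main libraries the LDL and vehicle ranges of each were apart: Cxcl1 held 90.0 to 243 CPM with LDL and 22.8 to 73.1 CPM with vehicle, Cxcl2 117 to 261 and 5.72 to 16.8 CPM, and Cxcl3 191 to 507 and 11.7 to 30.9 CPM. Of the 7 chemokines, 4 were called with LDL against vehicle in Dnmt3aKO, all of them higher (called means an adjusted p under 0.05 in edgeR's quasi-likelihood test with Benjamini-Hochberg adjustment over all genes), where 15.4% of 19444 genes tested were called in either direction. In Tet2KO 4 were called, all higher (16.8% of genes), in Jak2VF 5, of which 4 were higher and 1 lower (18.2%), and in WT 5, all higher (14.2%). Without WT LDL 3 and Tet2KO LDL 3, 5 members were called in Tet2KO, where Cxcl10 passed as lower (log2 fold change -1.79, edgeR adjusted p = 0.0463), and 5 in WT. The median log2 fold change of the 7 was 0.79 in Dnmt3aKO, 1.19 in Tet2KO, 0.73 in Jak2VF and 1.71 in WT, while that of all genes tested lay within 0.03 of 0. The WT median was the value of Cxcl9, which fell to 0.40 without WT LDL 1 (edgeR adjusted p = 0.73). Markers of other cell types moved with LDL too. Of 10 neutrophil markers 8 were lower with LDL in Dnmt3aKO, 5 in Tet2KO, where 1 was higher, 9 in Jak2VF and 5 in WT, and of 6 B cell markers 3, 5, 5 and 0 were lower in that order. Of 9 stromal markers 3, 4, 3 and 0 were lower in that order, with 1 higher in Dnmt3aKO and 1 in WT. Of 8 T and NK cell markers tested 1, 2, 1 and 1 were lower. Their part in the LDL results was not tested.

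Cxcl1, a neutrophil attractant, held 236, 243 and 235 CPM in Dnmt3aKO LDL libraries against 30.7, 51.0 and 46.2 CPM in Dnmt3aKO vehicle libraries, and 149, 139 and 165 CPM in Tet2KO LDL libraries against 25.5, 28.0 and 22.8 CPM in Tet2KO vehicle libraries. It held 136, 118 and 136 CPM in Jak2VF LDL libraries against 73.1, 53.9 and 42.6 CPM in Jak2VF vehicle libraries, and 90.0, 98.5 and 112 CPM in WT LDL libraries against 24.0, 25.0 and 25.8 CPM in WT vehicle libraries. Every LDL library was above every vehicle library of its genotype, and Jak2VF had the highest vehicle levels. The log2 fold change with LDL was 2.48 ± 0.17 (SE) in Dnmt3aKO (edgeR adjusted p = 1.3e-09), 2.57 ± 0.17 in Tet2KO (edgeR adjusted p = 1.18e-09), 1.20 ± 0.16 in Jak2VF (edgeR adjusted p = 2.01e-05) and 2.01 ± 0.17 in WT (edgeR adjusted p = 2.95e-08). By group mean the order was Dnmt3aKO, Tet2KO, Jak2VF and WT with LDL, each apart from the next, then Jak2VF and Dnmt3aKO with vehicle, which overlapped, then Tet2KO and WT with vehicle, which overlapped as well.

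Cxcl2, a second Cxcr2 ligand, held 235, 251 and 261 CPM in Dnmt3aKO LDL libraries against 9.97, 12.9 and 11.2 CPM in Dnmt3aKO vehicle libraries, and 242, 228 and 224 CPM in Tet2KO LDL libraries against 12.6, 10.5 and 8.19 CPM in Tet2KO vehicle libraries. It held 166, 153 and 137 CPM in Jak2VF LDL libraries against 16.8, 9.45 and 8.52 CPM in Jak2VF vehicle libraries, and 139, 117 and 126 CPM in WT LDL libraries against 11.8, 8.71 and 5.72 CPM in WT vehicle libraries. The vehicle ranges of the 4 genotypes overlapped from one neighbour in level to the next, whereas with LDL the Dnmt3aKO and Tet2KO libraries stood above those of Jak2VF and WT. LDL raised Cxcl2 21.9-fold in Dnmt3aKO, 22.2-fold in Tet2KO, 13.1-fold in Jak2VF and 14.6-fold in WT (edgeR adjusted p of 6.02e-11, 4.5e-11, 5.58e-10 and 3.22e-10 in that order).

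Cxcl3, the third of these ligands, held 490.0, 507 and 505 CPM in Dnmt3aKO LDL libraries against 17.6, 22.8 and 24.3 CPM in Dnmt3aKO vehicle libraries, and 403, 349 and 408 CPM in Tet2KO LDL libraries against 21.6, 17.7 and 13.0 CPM in Tet2KO vehicle libraries. It held 246, 219 and 203 CPM in Jak2VF LDL libraries against 30.9, 22.6 and 19.9 CPM in Jak2VF vehicle libraries, and 255, 191 and 248 CPM in WT LDL libraries against 17.5, 15.4 and 11.7 CPM in WT vehicle libraries. With LDL the ranges of Dnmt3aKO, Tet2KO and WT were apart, while WT and Jak2VF overlapped. The fold change with LDL was 23.2 in Dnmt3aKO, 22.2 in Tet2KO, 9.09 in Jak2VF and 15.6 in WT (edgeR adjusted p of 3.67e-12, 2.89e-12, 2.89e-10 and 1.72e-11 in that order). Cxcl2 and Cxcl3 share a run of 157 identical transcript bases, so reads from it could be split between them. The ratio of Cxcl3 to Cxcl2 counts was 1.43 to 2.39 in the main libraries but 0.313 to 0.952 in batch 1.

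**Figure D2:**
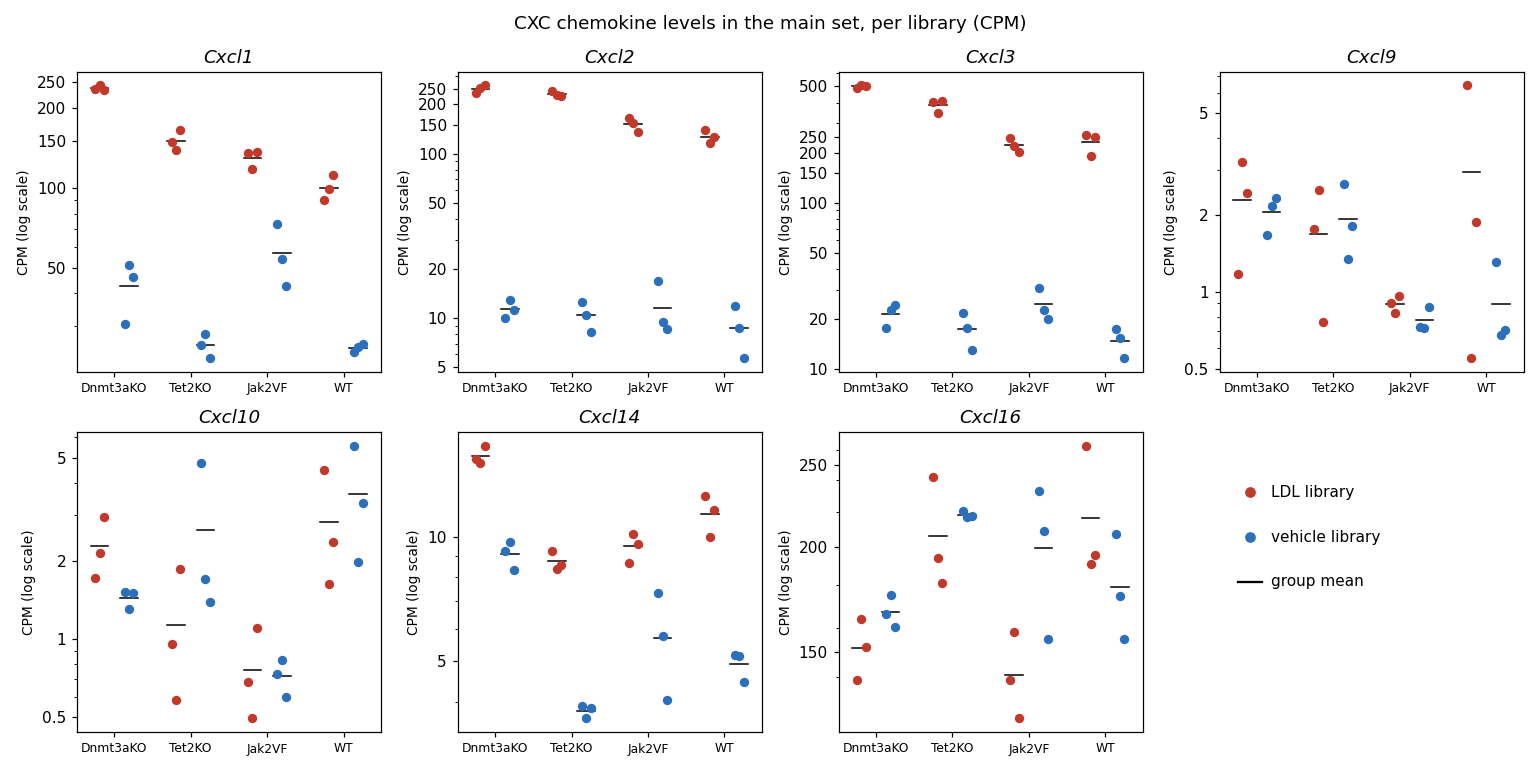
Each point is the level of 1 CXC chemokine in 1 main library, in CPM on a log axis, for Dnmt3aKO, Tet2KO, Jak2VF and WT, with LDL (red) left of vehicle (blue) and a black line at the group mean of 3 libraries. Points of Cxcl1, Cxcl2 and Cxcl3 separate fully by treatment, at 117 to 261 CPM with LDL and 5.72 to 16.8 CPM with vehicle for Cxcl2, while those of Cxcl9, Cxcl10, Cxcl14 and Cxcl16 overlap when all genotypes are set together.

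Cxcl14 rose with LDL in each genotype of the main set as well. It held 15.4, 15.01 and 16.6 CPM in Dnmt3aKO LDL libraries against 9.22, 9.69 and 8.29 CPM in Dnmt3aKO vehicle libraries, and 9.23, 8.36 and 8.55 CPM in Tet2KO LDL libraries against 3.90, 3.65 and 3.86 CPM in Tet2KO vehicle libraries. It held 8.63, 10.2 and 9.62 CPM in Jak2VF LDL libraries against 7.30, 5.76 and 4.05 CPM in Jak2VF vehicle libraries, and 12.5, 10.0 and 11.6 CPM in WT LDL libraries against 5.19, 5.15 and 4.46 CPM in WT vehicle libraries. Each LDL library stood above each vehicle library of its genotype. The log2 fold change was 0.79 in Dnmt3aKO (edgeR adjusted p = 0.000356), 1.19 in Tet2KO (edgeR adjusted p = 6.75e-06), 0.73 in Jak2VF (edgeR adjusted p = 0.00114) and 1.20 in WT (edgeR adjusted p = 3.54e-06).

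Cxcl16, the membrane-spanning chemokine and scavenger receptor, was the member that varied least, with the highest main library only 2.10-fold above the lowest. It held 139, 164 and 152 CPM in Dnmt3aKO LDL libraries against 166, 175 and 161 CPM in Dnmt3aKO vehicle libraries, and 242, 194 and 181 CPM in Tet2KO LDL libraries against 220.4, 217 and 218 CPM in Tet2KO vehicle libraries. It held 139, 158 and 125 CPM in Jak2VF LDL libraries against 233, 209 and 156 CPM in Jak2VF vehicle libraries, and 263, 191 and 195 CPM in WT LDL libraries against 207, 175 and 156 CPM in WT vehicle libraries. Ranges overlapped between treatments in Jak2VF, yet the test called a fall there (log2 fold change -0.50 ± 0.15, edgeR adjusted p = 0.0219). That call was lost without Jak2VF vehicle 1 (-0.38, edgeR adjusted p = 0.121), vehicle 2 (-0.48, 0.0691), LDL 1 (-0.49, 0.0757) or LDL 3 (-0.42, 0.11). The log2 fold changes of the other genotypes, -0.14 in Dnmt3aKO, -0.09 in Tet2KO and 0.27 in WT, were not called (edgeR adjusted p of 0.611, 0.746 and 0.242). Zmynd15, on the opposite strand, shares 552 exon bases with Cxcl16 and held 14.8 to 58.5 CPM in the main set. Whether counting used strand is not stated, so reads from the shared bases cannot be assigned to either gene of the pair.

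The interferon-inducible Cxcr3 ligands were scarce. Cxcl9 held 1.17, 3.23 and 2.43 CPM in Dnmt3aKO LDL libraries against 1.67, 2.17 and 2.32 CPM in Dnmt3aKO vehicle libraries, and 1.77, 2.50 and 0.760 CPM in Tet2KO LDL libraries against 2.63, 1.35 and 1.80 CPM in Tet2KO vehicle libraries. It held 0.901, 0.825 and 0.962 CPM in Jak2VF LDL libraries against 0.730, 0.723 and 0.869 CPM in Jak2VF vehicle libraries, and 6.40, 0.551 and 1.87 CPM in WT LDL libraries against 1.31, 0.679 and 0.708 CPM in WT vehicle libraries. WT LDL 1 stood alone at the top, and LDL and vehicle overlapped in each genotype. The rise called in WT (log2 fold change 1.71 ± 0.57, edgeR adjusted p = 0.0491) was 0.40 without WT LDL 1 (edgeR adjusted p = 0.73), 1.55 without WT vehicle 2 (0.163) and 1.56 without WT vehicle 3 (0.172). The call was lost as well with limma-voom (1.12, adjusted p = 0.28), with only the groups compared (1.71, edgeR adjusted p = 0.251) and with plain library totals (1.62, edgeR adjusted p = 0.0578).

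Cxcl10 held 1.71, 2.15 and 2.96 CPM in Dnmt3aKO LDL libraries against 1.53, 1.30 and 1.51 CPM in Dnmt3aKO vehicle libraries, and 0.955, 0.581 and 1.86 CPM in Tet2KO LDL libraries against 4.78, 1.71 and 1.39 CPM in Tet2KO vehicle libraries. It held 0.683, 0.495 and 1.10 CPM in Jak2VF LDL libraries against 0.730, 0.830 and 0.597 CPM in Jak2VF vehicle libraries, and 4.51, 1.63 and 2.36 CPM in WT LDL libraries against 5.57, 1.98 and 3.36 CPM in WT vehicle libraries. Only in Dnmt3aKO did LDL and vehicle not overlap, with a log2 fold change of 0.67 that was not called (edgeR adjusted p = 0.417). In Tet2KO the log2 fold change of -1.27 (edgeR adjusted p = 0.0868) passed without Tet2KO vehicle 3 (-1.59, edgeR adjusted p = 0.0449) or without Tet2KO LDL 3 (-1.79, edgeR adjusted p = 0.0403). Transcripts of the interferons themselves were nearly absent, with at most 2 counts of Ifng and 3 of Ifnb1 in any main library. Art3, which shares 133 exon bases with Cxcl10 on the opposite strand, held at most 0.393 CPM.

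With vehicle alone, Cxcl1 was higher in Dnmt3aKO and in Jak2VF than in WT, Cxcl14 was higher in Dnmt3aKO, and in Jak2VF Cxcl3 was higher and Cxcl10 lower. Dnmt3aKO had 2 members called, against 11.1% of genes: Cxcl1 (log2 fold change 0.77, edgeR adjusted p = 0.00294) and Cxcl14 (0.88, edgeR adjusted p = 0.000239), each above every WT vehicle library. Cxcl3 was also above every WT library but not called (0.54, edgeR adjusted p = 0.0685), as was Cxcl9 (1.19, edgeR adjusted p = 0.243), and Cxcl10 was below every WT library (-1.33, edgeR adjusted p = 0.0712). How many of all genes lay apart from WT like these was not counted. Cxcl3 passed without WT vehicle 1 (0.67, edgeR adjusted p = 0.0432) or Dnmt3aKO vehicle 1 (0.67, edgeR adjusted p = 0.0375), and Cxcl10 without WT vehicle 2 (-1.62, edgeR adjusted p = 0.0372). Neutrophil markers differed in these libraries, summing to 670.1 to 726 CPM in Dnmt3aKO and 198 to 257 CPM in WT, with 9 of 10 called higher. B cell markers summed to 104.5 to 121 CPM in Dnmt3aKO and 36.0 to 52.1 CPM in WT, with 5 of 6 higher. The part of these markers in the result was not tested.

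In Jak2VF with vehicle 3 members were called, against 9.55% of genes. Cxcl1 (1.18, edgeR adjusted p = 0.000105) and Cxcl3 (0.72, edgeR adjusted p = 0.0153) were higher than in WT and Cxcl10 was lower (-2.33 ± 0.50, edgeR adjusted p = 0.00435), each with no overlap of libraries. The call of Cxcl3 was lost without WT vehicle 3 (0.57, edgeR adjusted p = 0.103) or Jak2VF vehicle 1 (0.53, edgeR adjusted p = 0.106), and Cxcl14 passed without Jak2VF vehicle 3 (0.41, edgeR adjusted p = 0.0406). Neutrophil markers summed to 556 to 725 CPM in Jak2VF against 198 to 257 CPM in WT, with 8 of 10 higher. Stromal markers summed to 12540 to 16787 CPM in Jak2VF and 10805 to 11928 CPM in WT, with 3 of 9 higher and 1 lower. Of 8 macrophage markers 3 were lower. The part of these markers was not tested. In Tet2KO with vehicle edgeR's test called 0 of 7 members, against 5.47% of genes. DESeq2 and limma-voom also called 0, and 1 member had an unadjusted p under 0.05. There Cxcl14 lay below every WT library (-0.37, edgeR adjusted p = 0.202) and Cxcl9 (1.12, edgeR adjusted p = 0.357) and Cxcl16 (0.28, edgeR adjusted p = 0.348) above every WT library. How many of all genes lay apart from WT in this way was not counted. In these Tet2KO libraries 7 of 8 T and NK cell markers and 5 of 6 B cell markers were higher. Of 10 neutrophil markers 6 were lower and 2 higher, and the part of these markers was not tested. The 3 comparisons of a mutant genotype with WT share their WT libraries.

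With LDL, all 3 Cxcr2 ligands were higher in Dnmt3aKO than in WT, and Cxcl2 and Cxcl3 were higher in Tet2KO than in WT. In Dnmt3aKO 5 members were called, against 17.5% of genes. Cxcl1 (log2 fold change 1.25, edgeR adjusted p = 1.75e-05), Cxcl2 (0.97, edgeR adjusted p = 0.00315) and Cxcl3 (1.11, edgeR adjusted p = 0.000164) stood above every WT LDL library, and none of these calls was lost when any library compared was left out. Cxcl14 was higher (0.46, edgeR adjusted p = 0.0289) and Cxcl16 lower (-0.51, edgeR adjusted p = 0.0217), again with no overlap. Without both Gfap-high libraries Cxcl14 was not called (0.48, edgeR adjusted p = 0.0755), and Cxcl16 was (-0.58, 0.026). Cxcl14 was no longer called without WT LDL 2 (0.39, edgeR adjusted p = 0.0589), WT LDL 3 (0.48, 0.0682), Dnmt3aKO LDL 1 (0.49, 0.0507) or Dnmt3aKO LDL 3 (0.43, 0.0931). Cxcl16 was not called without WT LDL 1 (-0.34, edgeR adjusted p = 0.167), Dnmt3aKO LDL 1 (-0.44, 0.0891) or Dnmt3aKO LDL 3 (-0.50, 0.0707). Neutrophil markers summed to 459.8 to 509 CPM in Dnmt3aKO and 148 to 240.2 CPM in WT, with 9 of 10 higher. B cell markers summed to 64.0 to 84.4 CPM in Dnmt3aKO and 27.0 to 39.0 CPM in WT, with 5 of 6 higher. The part of these markers in the results was not tested.

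Tet2KO with LDL had 2 members called, against 2.76% of genes: Cxcl2 (0.86, edgeR adjusted p = 0.025) and Cxcl3 (0.74, edgeR adjusted p = 0.0217), while Cxcl1 at 0.59 was above every WT library but not called (edgeR adjusted p = 0.0564). Cxcl1 was called there by DESeq2 (adjusted p = 0.0147) and by edgeR with DESeq2 size factors (0.0483), plain library totals (0.0449), the stricter filter (0.0441) or no filter (0.00234). Neither Cxcl2 nor Cxcl3 was called without both Gfap-high libraries, WT LDL 3 and Tet2KO LDL 3 (0.88, edgeR adjusted p = 0.162, and 0.76, 0.141). Cxcl2 was not called without WT LDL 2 (0.81, edgeR adjusted p = 0.0599), WT LDL 3 (0.85, 0.0949), Tet2KO LDL 1 (0.83, 0.0609), Tet2KO LDL 2 (0.87, 0.0645) or Tet2KO LDL 3 (0.88, 0.0535). Cxcl3 was not called without WT LDL 2 (0.63, edgeR adjusted p = 0.0681), WT LDL 3 (0.80, 0.0505), Tet2KO LDL 1 (0.71, 0.0571) or Tet2KO LDL 3 (0.70, 0.074). Cxcl10 and Cxcl14 were not called (-1.36 and -0.38, edgeR adjusted p of 0.196 and 0.217), though Cxcl14 lay below every WT library. Here the neutrophil markers ran the other way, summing to 59.8 to 79.0 CPM in Tet2KO and 148 to 240.2 CPM in WT, with 6 of 10 lower. Of 6 B cell markers 4 were higher, and the part of these markers was not tested.

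Jak2VF with LDL had 2 members called, both lower, against 9.97% of genes, and the Cxcr2 ligands were not called. Cxcl10 (-1.91, edgeR adjusted p = 0.0215) and Cxcl16 (-0.62, edgeR adjusted p = 0.0121) were each below every WT library. The Cxcl10 call was lost without WT LDL 1 (-1.40, edgeR adjusted p = 0.165), Jak2VF LDL 1 (-1.85, 0.0875) or Jak2VF LDL 2 (-1.67, 0.061), and the Cxcl16 call without WT LDL 1 (-0.46, edgeR adjusted p = 0.0943), Jak2VF LDL 1 (-0.61, 0.0519) or Jak2VF LDL 3 (-0.54, 0.0811). Cxcl1 lay above every WT library at 0.38 (edgeR adjusted p = 0.132). Cxcl9 at -1.72 was not called (edgeR adjusted p = 0.0578), and it was without WT LDL 2 (-2.21, edgeR adjusted p = 0.00369), by DESeq2 (-1.71, adjusted p = 0.0194) and with no filter (-1.72, edgeR adjusted p = 0.000209). Neutrophil markers summed to 320.3 to 378 CPM in Jak2VF and 148 to 240.2 CPM in WT, with 7 of 10 higher and 1 lower. T and NK cell markers summed to 6.27 to 7.61 CPM in Jak2VF and 15.9 to 21.0 CPM in WT, with 6 of 8 tested lower, and 4 of 8 macrophage markers were lower. The part of these markers in the result was not tested.

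**Figure D3:**
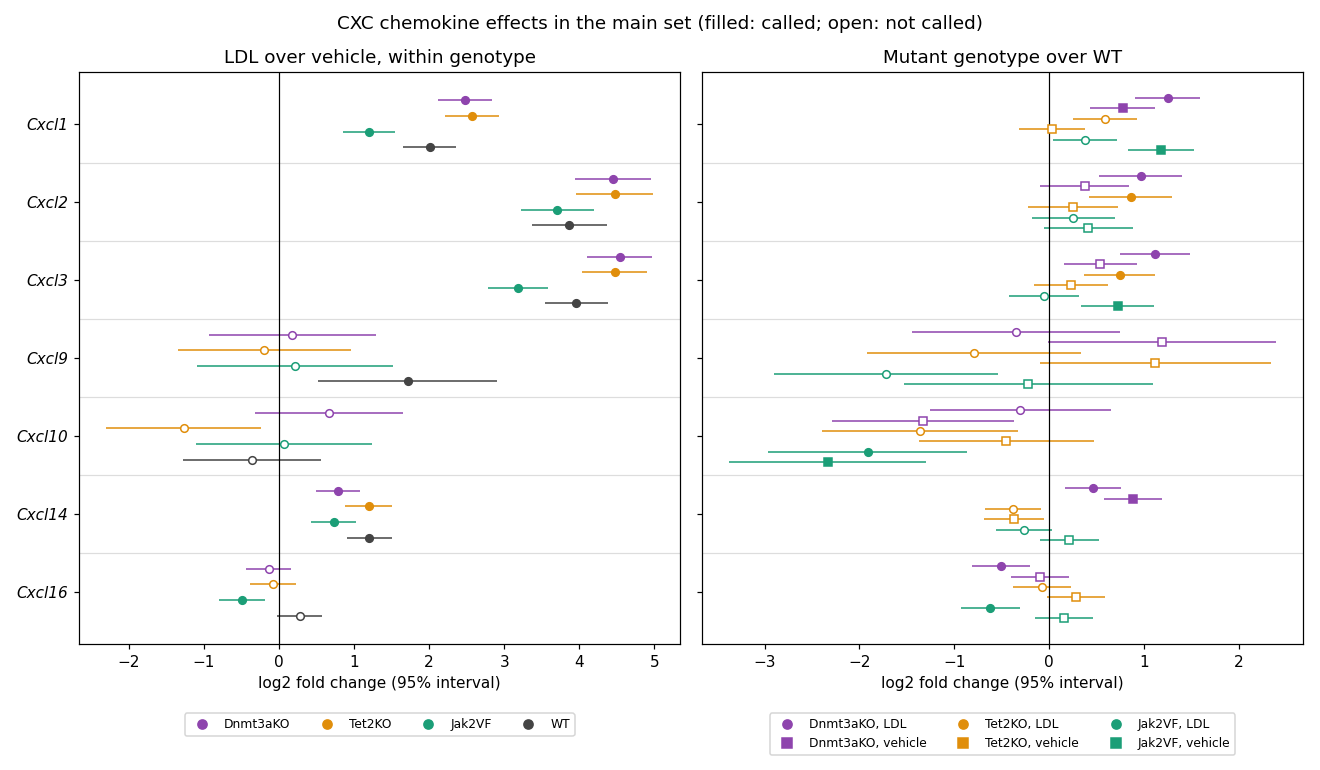
Log2 fold changes of each CXC chemokine in the main set, with LDL against vehicle in the left panel and mutant against WT in the right, bars giving 95% intervals and filled points an adjusted p under 0.05. The values for Cxcl1, Cxcl2 and Cxcl3 with LDL lie between 1.20 and 4.54 in every genotype, and Cxcl10 lies lowest in Jak2VF against WT (-2.33 with vehicle, -1.91 with LDL).

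Whether the LDL response itself differed from that of WT was tested as an interaction, in which edgeR's test called 0 of 7 members in Dnmt3aKO, Tet2KO and Jak2VF (0.432%, 0.103% and 2.47% of genes were called). Unadjusted p was under 0.05 for 1, 2 and 4 members in that order, limma-voom called 0 in each, and DESeq2 called 0, 0 and 3. In Dnmt3aKO the LDL response of Cxcl3 was 0.58 larger on the log2 scale (95% interval 0.04 to 1.11, edgeR adjusted p = 0.319). In Tet2KO that of Cxcl1 was 0.56 larger (0.08 to 1.05, edgeR adjusted p = 0.542). In Jak2VF the difference in response was -0.81 for Cxcl1 (edgeR adjusted p = 0.0629), -0.78 for Cxcl3 (0.0855), -0.77 for Cxcl16 (0.0513) and -0.48 for Cxcl14 (0.15). These Jak2VF values lay near the threshold and passed without some libraries. Without WT vehicle 1, Cxcl3 (-0.92, edgeR adjusted p = 0.0413) and Cxcl16 (-0.90, 0.0236) passed, and without Jak2VF LDL 2 Cxcl16 did (-0.88, 0.0352). Without Jak2VF vehicle 3, Cxcl1 (-0.97, edgeR adjusted p = 0.019), Cxcl3 (-0.91, 0.0341), Cxcl14 (-0.67, 0.0243) and Cxcl16 (-0.92, 0.0141) passed. Without WT LDL 2, Cxcl1 (-0.83, edgeR adjusted p = 0.0306), Cxcl3 (-0.91, 0.0248), Cxcl9 (-2.01, 0.0446) and Cxcl16 (-0.87, 0.0155) passed.

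Other genes of the same pathways were taken from lists. Of 8 further CXC ligands 4 were tested, and Ppbp and Cxcl5, which also bind Cxcr2, rose with LDL in every genotype, while Cxcl12, a stromal ligand of Cxcr4, fell in each mutant genotype and was not called in WT. With LDL the list had 2 higher and 1 lower in Dnmt3aKO, 3 and 1 in Tet2KO, 2 and 1 in Jak2VF and 3 and 0 in WT. Of all genes 15.4%, 16.8%, 18.2% and 14.2% were called in either direction in that order. Ppbp averaged 57.2 ± 3.80 against 18.8 ± 1.39 CPM in Dnmt3aKO, 228 ± 17.1 against 54.2 ± 5.61 CPM in Tet2KO, 168 ± 8.93 against 48.4 ± 11.6 CPM in Jak2VF and 210.4 ± 11.3 against 27.6 ± 4.04 CPM in WT, LDL against vehicle (SD, n = 3 each). Ppbp was lower in Dnmt3aKO than in WT with LDL (log2 fold change -1.88, edgeR adjusted p = 4.48e-09), the reverse of Cxcl1, Cxcl2 and Cxcl3 in the same libraries. Among 8 receptors, Cxcr2, the receptor of these ligands, was higher in Dnmt3aKO (2.07 with LDL, 2.00 with vehicle) and in Jak2VF (1.56 and 1.83) than in WT and lower in Tet2KO (-1.16 and -1.13), all called. The medians of the neutrophil markers had the same signs, 1.27 and 1.66 in Dnmt3aKO, 0.95 and 1.52 in Jak2VF and -1.45 and -2.37 in Tet2KO. With LDL against vehicle, 1 of the 8 receptors was higher and 2 lower in Dnmt3aKO, 1 and 1 in Tet2KO, 0 and 1 in Jak2VF and 1 and 0 in WT. The shares of all genes called are those given above for the ligands. Cxcr6, the receptor of Cxcl16, was higher in Tet2KO (0.89 with LDL and 1.23 with vehicle), and Cxcr3, the receptor of Cxcl9 and Cxcl10, was lower in Dnmt3aKO (-2.08 with LDL and -1.30 with vehicle). Of 8 T and NK cell markers tested, 1 was higher with LDL and 7 with vehicle in Tet2KO, and 3 were lower and 1 higher with LDL and 2 lower and 1 higher with vehicle in Dnmt3aKO. The part of these markers in the receptor results was not tested.

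Of 18 NF-kB factors and targets, 11 rose with LDL in Dnmt3aKO, 12 in Tet2KO, 12 in Jak2VF and 12 in WT, none fell, and the median log2 fold change was 0.74, 0.80, 0.59 and 0.73 in that order. Of all genes 15.4%, 16.8%, 18.2% and 14.2% were called in either direction. Among the cytokine genes of this list, Il6 rose by 2.54, 2.72, 1.78 and 2.16 and Il1a by 3.55, 2.86, 2.35 and 3.37 on the log2 scale in Dnmt3aKO, Tet2KO, Jak2VF and WT. Against WT with LDL, Dnmt3aKO had 12 of the 18 higher, Tet2KO 5 and Jak2VF 3, and with vehicle 10 were higher in Dnmt3aKO, 4 higher and 1 lower in Tet2KO, and 3 higher and 1 lower in Jak2VF. The shares of all genes called were 17.5%, 2.76% and 9.97% with LDL and 11.1%, 5.47% and 9.55% with vehicle. Rsad2, an antiviral enzyme induced by interferon, was lower in Jak2VF than in WT with LDL (log2 fold change -1.21, edgeR adjusted p = 0.0496) and with vehicle (-2.36, edgeR adjusted p = 0.000537).

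Among 7 genes of chemokine mRNA decay, Zc3h12a, an RNase that degrades cytokine transcripts, rose with LDL by 1.05 in Dnmt3aKO, 1.01 in Tet2KO, 0.75 in Jak2VF and 0.87 in WT. The list had 1, 3, 3 and 2 members higher in that order and none lower. With LDL 15.4%, 16.8%, 18.2% and 14.2% of all genes were called in either direction in that order. Among 8 proteases that cut or shed chemokines, Mmp8 rose by 2.02, 1.5, 1.61 and 2.19 and Mmp12 by 1.94, 1.72, 1.82 and 1.42 in the same order, with 3, 3, 4 and 3 of the list higher and 1 lower in each genotype. Adam10, which releases Cxcl16, fell with LDL in WT (log2 fold change -0.33, edgeR adjusted p = 0.0421) and was not called in the mutant genotypes (0.01 in Dnmt3aKO, -0.14 in Tet2KO and 0.14 in Jak2VF).

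Over the 24 main libraries, the genes whose log2 CPM ran most like each member were found by Pearson correlation, a description in which the libraries share treatment and genotype. Cxcl2 and Cxcl3 were nearest to each other (r = 0.996), and the deviations of the libraries from their group means still correlated at 0.88. Cxcl1 was nearest to Il6 (0.97), then Cxcl3, Abtb2 and Ifrd1. Cxcl2 was followed by Trem1, Slc6a12, Blcap and U90926, and Cxcl3 by Trem1, U90926, Nqo1 and Blcap. Cxcl10 was nearest to the interferon-stimulated genes Cmpk2 (0.91), Rsad2, Ifit1, Mx1 and Ifit1bl1, and Cxcl9 to Il18bp (0.83), Gbp2, Scarb2, Cyp4f13 and Tle6. Cxcl14 ran most like Slpi (0.97), F10, Slc11a1, Dnmt3l and Procr, and Cxcl16 like H2-K1 (0.93), Lst1, Tmem176b, Mif4gd and H2-DMb1. With Spearman correlation in place of Pearson, the nearest 5 shared 0 genes for Cxcl2, 1 for Cxcl3, 3 for Cxcl9, 4 for Cxcl10, 2 for Cxcl14 and 4 for Cxcl16.

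In batch 1, which has fewer libraries, the Cxcr2 ligands were again at their highest with LDL, but no difference passed the test. Cxcl1 held 68.1 and 66.8 CPM in Tet2KO LDL libraries against 11.5, 20.2 and 24.1 CPM in Tet2KO vehicle libraries, and 21.9 and 13.2 CPM in WT LDL libraries against 9.69, 6.50 and 8.85 CPM in WT vehicle libraries. Cxcl2 held 155 and 159.8 CPM in Tet2KO LDL libraries against 12.9, 36.4 and 35.9 CPM in Tet2KO vehicle libraries, and 46.6 and 32.8 CPM in WT LDL libraries against 21.2, 10.2 and 9.85 CPM in WT vehicle libraries. Cxcl3 held 106 and 152 CPM in Tet2KO LDL libraries against 5.72, 17.9 and 24.3 CPM in Tet2KO vehicle libraries, and 31.7 and 13.6 CPM in WT LDL libraries against 6.65, 3.20 and 4.09 CPM in WT vehicle libraries. Each LDL library was above each vehicle library of its genotype for all 3 genes. Log2 fold changes with LDL were 1.86, 2.47 and 3.02 for Cxcl1, Cxcl2 and Cxcl3 in Tet2KO (edgeR adjusted p of 0.143, 0.149 and 0.149) and 1.06, 1.53 and 2.27 in WT (edgeR adjusted p of 0.751, 0.741 and 0.574).

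Cxcl10 was not called in batch 1, although every LDL library lay below every vehicle library in both genotypes. It held 1.72 and 1.07 CPM in Tet2KO LDL libraries against 3.90, 2.57 and 3.68 CPM in Tet2KO vehicle libraries, and 0.621 and 0.247 CPM in WT LDL libraries against 1.22, 1.60 and 0.952 CPM in WT vehicle libraries. Tet2KO against WT had the opposite sign in the sets, with a log2 fold change for Cxcl10 of -1.36 in the main set and 1.85 in batch 1 with LDL (edgeR adjusted p of 0.196 and 0.183). With vehicle it was -0.45 and 1.43 (edgeR adjusted p of 0.663 and 0.0901). The difference between sets was not tested, since the tables were fitted apart. Cxcl9 (0.143 to 2.46 CPM), Cxcl14 (9.48 to 24.6 CPM) and Cxcl16 (209 to 330.3 CPM) overlapped between LDL and vehicle in both genotypes. The rise of Cxcl14 with LDL in the main set was not seen here. Its log2 fold change was -0.12 in Tet2KO and 0.03 in WT, neither called, against 1.19 and 1.20 in the main set.

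No member was called in any batch 1 comparison by edgeR's test, which called 0 genes for LDL in Tet2KO, in WT and for their interaction, 0.536% for Tet2KO against WT with LDL and 1.89% with vehicle. Unadjusted p was under 0.05 for 4 members for LDL in Tet2KO, 4 for LDL in WT, 0 for the interaction, 5 for Tet2KO against WT with LDL and 5 with vehicle. Of all 15481 genes it was under 0.05 for 1126, 707, 236, 1844 and 2163 in that order. DESeq2 called 3, 0, 0, 4 and 2 members in that order (196, 74, 4, 398 and 685 genes). By limma-voom 0, 0, 0, 1 and 0 members were called (0, 0, 0, 89 and 278 genes). Tet2KO against WT was 1.96 for Cxcl1 with LDL (edgeR adjusted p = 0.05002, not under the threshold) and 1.16 with vehicle (edgeR adjusted p = 0.0957). Without Tet2KO vehicle 1, the vehicle difference passed for Cxcl1 (1.41, edgeR adjusted p = 0.0306) and Cxcl3 (2.19, edgeR adjusted p = 0.0438). Stromal markers summed to 3388 CPM in Tet2KO LDL 2 and 3689 CPM in Tet2KO vehicle 3, against 442 to 802 CPM in the other 8 libraries, with 0 of 9 called between genotypes under either treatment. Neutrophil markers summed to 50.1 to 102 CPM in Tet2KO LDL and 46.5 to 76.8 CPM in Tet2KO vehicle libraries against 119 to 156 CPM in WT LDL and 124 to 146 CPM in WT vehicle libraries, with 2 of 9 tested called lower with vehicle and 0 with LDL. The part of these markers in the batch 1 results was not tested.

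**Figure D4:**
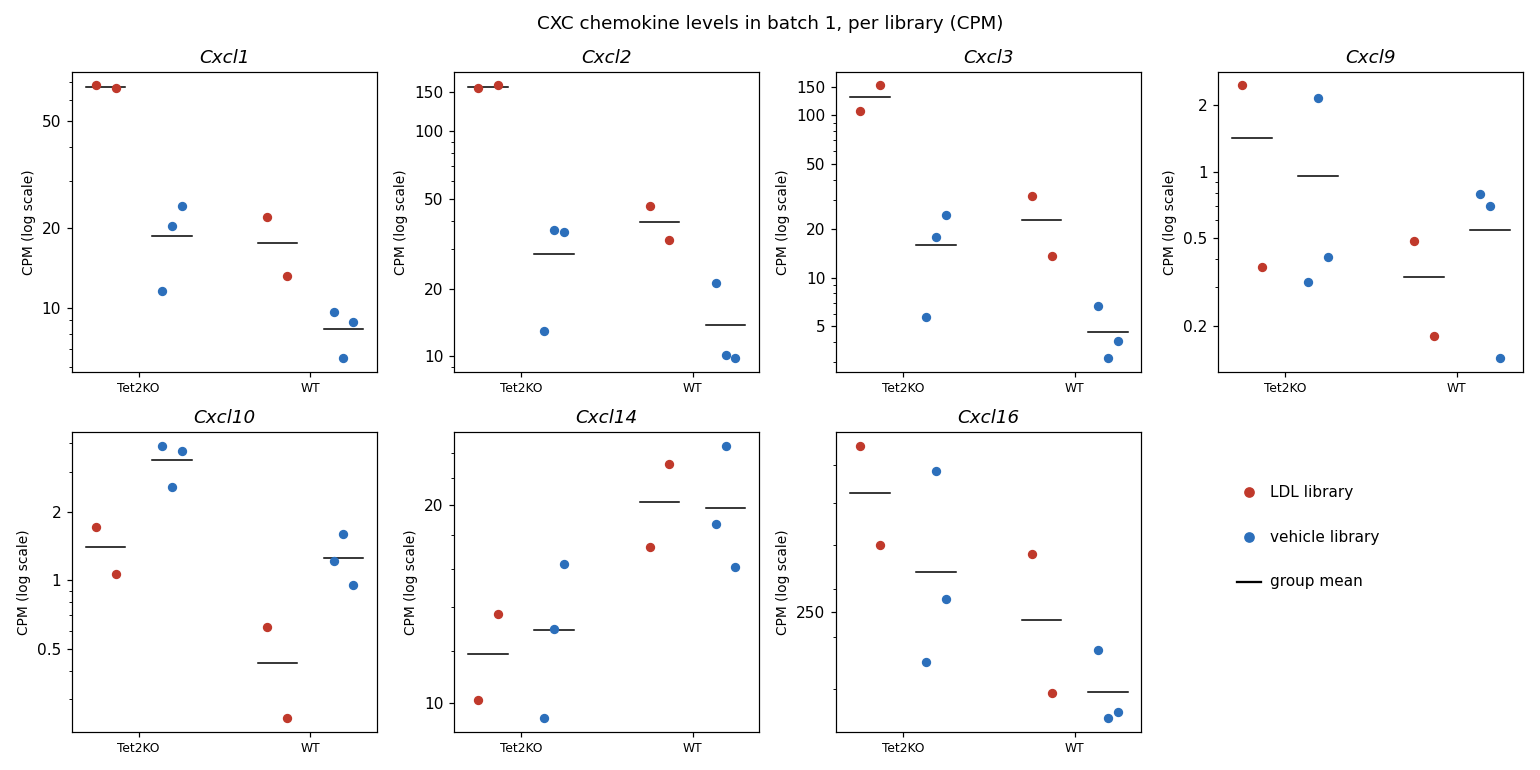
Each point is the level of 1 CXC chemokine in 1 batch 1 library, in CPM on a log axis, for Tet2KO and WT, with LDL (red, 2 libraries) left of vehicle (blue, 3 libraries) and a black line at the group mean. For Cxcl1, Cxcl2 and Cxcl3 the Tet2KO LDL libraries lie above all others, at 66.8 to 68.1 CPM for Cxcl1.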

How the data were processed

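RNA of cultured bone marrow macrophages gave 34 libraries, 24 in the main set and 10 in batch 1, all of them used. The authors deposited counts, 1 whole number per gene and library. Although both deposited tables carry the word normalized in their names, library totals span 1.82-fold in the main set and 2.93-fold in batch 1, and the values were treated as unscaled counts. Per the submitters' processing notes the genome build was mm10, with the aligner, counter and gene models not given in the sources used here. The labels name both ribosomal RNA depletion and poly-A selection.

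The filter kept 19444 genes of the main set and 15481 of batch 1, those that reached 10 counts in 3 main or 2 batch 1 libraries. They were tested with the edgeR quasi-likelihood test (edgeR 4.0.16, R 4.3.3) after TMM scaling, 1 mean per group and a spread pooled over the groups of a set. Tests were two-sided with Benjamini-Hochberg adjustment over all genes of a comparison, and a call is an adjusted p under 0.05. Whether the libraries of groups overlap is a description, not a test, and how many of all genes lay apart was not counted. CPM are counts scaled to TMM-adjusted library totals. Levels per kilobase use the longest protein-coding transcript of the Ensembl annotation of GRCm38. edgeR's common biological variation (BCV) came to 0.137 in the main set and 0.199 in batch 1. Tested on simulated data for LDL in WT, the main set recovered 20% of 1.5-fold, 74% of 2-fold, 86% of 4-fold and 88% of 8-fold changes over 19444 genes, and batch 1 recovered 2%, 48%, 68% and 80% over 15481 genes. There 50 random genes per fold were changed in the WT LDL group alone, and 5 and 7 unchanged genes were called. The main data had 2770 genes called for LDL in WT, so these rates need not hold for it.

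The members, gene lists and tests were chosen with earlier results of these data known. Named genes are the 7 members, Dnmt3a, up to 3 called genes per list and comparison with the largest change and a mean of at least 1 CPM, and the 5 genes nearest to each member; 1 near gene of Cxcl1 and the counts of 1 gene list are not reported here. Adam10, Art3, Zmynd15, Ifng, Ifnb1 and Gfap were named outside that rule after their values were seen, and values are also given for rule-named genes in further comparisons. Promoters were read on the 250 bases before the start, leaving out the 50 after it, which departs from the plan. The labels give replicate numbers but state no pairing of libraries. Deviations of libraries with the same title number from their group means correlated most for Tet2KO against WT with LDL, at 0.336 to 0.544. The value of 0.336 came from the Gfap-high libraries. For Jak2VF against WT with vehicle the values ran from -0.007 to 0.404. Libraries with different numbers were not compared, so whether the numbers mark pairs is not known. Alternatives were other scalings, filters, tools (DESeq2 1.42.0, limma-voom in limma 3.58.1), a replicate block, fits of only the groups compared, and leaving out libraries.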

Additional observations from a re-analysis of the deposited data

How the results depend on the processing

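Of 2037 values of a member in a comparison under an alternative, 1868 kept direction and call, 47 lost the call, 69 gained it, 53 differed in sign with neither value called, and 0 reversed a call. The cause of each change was not tested. Fits of only the groups compared estimate the spread from fewer libraries, and its part in their changes was not tested either.

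Counts of members called moved by over 1.5 times, or to or from 0, as follows, with smaller moves named after them. For Dnmt3aKO against WT with LDL 5 became 3 with only the groups compared, and 3 to 5 with 1 library left out; with vehicle 2 became 5 with no filter and 4 with DESeq2, only the groups compared or the title replicate block. For Tet2KO against WT with LDL 2 became 4 with no filter, 1 with only the groups compared, 0 without both Gfap-high libraries and 0 to 2 with 1 library left out. For Jak2VF against WT with LDL 2 became 0 with only the groups compared and 0 to 3 with 1 library left out, and 3 with DESeq2 or no filter. For the Jak2VF interaction 0 became 1 with DESeq2 size factors, plain totals or either replicate block, 3 with no filter or DESeq2, 2 with the stricter filter and 0 to 4 with 1 library left out. In batch 1 0 became 3 with DESeq2 for LDL in Tet2KO. For Tet2KO against WT with vehicle it became 2 with DESeq2 and 0 to 2 with 1 library left out, and with LDL 4 with DESeq2 and 1 with DESeq2 size factors, plain totals, no filter, the stricter filter or limma-voom.

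Smaller moves were 5 to 4 for LDL in WT (plain totals, either block, limma-voom, only the groups compared), 4 to 5 for LDL in Tet2KO (no filter, description block, DESeq2, without both Gfap-high libraries) and in Dnmt3aKO (only the groups compared), 5 to 4 for LDL in Jak2VF and 3 to 2 for Jak2VF against WT with vehicle (both only the groups compared). For Tet2KO against WT with LDL 2 became 3 with DESeq2, DESeq2 size factors, plain totals or the stricter filter, for Dnmt3aKO against WT 5 became 4 with LDL (no filter, without both Gfap-high libraries) and 2 became 3 with vehicle (description block). With 1 library left out, the counts ran from 4 to 5 for LDL in WT, in Tet2KO and in Jak2VF. Against WT with vehicle they then ran from 2 to 4 in Jak2VF and from 2 to 3 in Dnmt3aKO.

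Counts over all genes, on which the background shares rest, moved by over 1.5 times as follows. With 1 library left out they ran from 631 to 4487 for Jak2VF (1938) and 1838 to 5658 for Dnmt3aKO (3397) against WT with LDL, 2026 to 5035 for LDL in Jak2VF (3532), 1006 to 2059 for Jak2VF against WT with vehicle (1857), 643 to 830 for Tet2KO against WT with vehicle (1064), 361 to 840 with LDL (537), 41 to 731, 2 to 41 and 96 to 3628 for the Dnmt3aKO, Tet2KO and Jak2VF interactions, and in batch 1 8 to 38 for Tet2KO against WT with LDL and 70 to 249 with vehicle. With only the groups compared, LDL against vehicle called 5542 genes in Dnmt3aKO (2988 with all groups), 1472 in Tet2KO (3267) and 1261 in WT (2770). Mutant against WT with LDL then called 1284 genes in Dnmt3aKO (3397), 264 in Jak2VF (1938) and 38 in Tet2KO (537), and Jak2VF against WT with vehicle at 724 (1857). Without both Gfap-high libraries the LDL counts against WT were 2079, 288 and 1200 in Dnmt3aKO, Tet2KO and Jak2VF. Apart from leaving 1 library out, the interactions ranged from 50 to 458 genes for Dnmt3aKO (84), 0 to 154 for Tet2KO (20) and 22 to 1963 for Jak2VF (480). In batch 1 DESeq2 called 196 genes for LDL in Tet2KO (0), 74 for LDL in WT (0), 398 for Tet2KO against WT with LDL (83) and 685 with vehicle (292). There the title block called 31 with LDL and 160 with vehicle, no filter 136 with LDL and only the groups compared 1 with LDL.

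The replicate block by title number lost Cxcl9 with LDL in WT (log2 fold change 1.63, edgeR adjusted p = 0.0648). It gained Cxcl3 (0.56, 0.0405) and Cxcl10 (-1.25, 0.0454) in Dnmt3aKO against WT with vehicle and Cxcl16 in the Jak2VF interaction (-0.76, 0.0249). The block by description number lost Cxcl9 with LDL in WT (1.62, edgeR adjusted p = 0.0805). It gained Cxcl10 with LDL in Tet2KO (-1.79, 0.0205) and Cxcl3 in Dnmt3aKO against WT with vehicle (0.59, 0.0198). Cxcl16 in the Jak2VF interaction was gained there as well (-0.75, 0.0388). Neither block changed a call of Tet2KO against WT with LDL, where same-numbered libraries correlated most.

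Values that differed in sign were uncalled: Cxcl3 in Jak2VF against WT with LDL (0.038, plain totals), Cxcl14 in the Tet2KO interaction (0.0086 with no filter and 0.015 without both Gfap-high libraries), Cxcl9 with LDL in Tet2KO (0.19 with the description block, 0.12 without those libraries), Cxcl10 with LDL in Jak2VF (-0.10 with that block, -0.011 with limma-voom), Cxcl16 in Dnmt3aKO against WT with vehicle (0.0061 with that block), Cxcl9 in Dnmt3aKO against WT with LDL (0.22, limma-voom) and Cxcl9 with LDL in batch 1 Tet2KO (-0.048, title block).

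Leaving out 1 library at a time changed the sign of 24 uncalled values. With LDL against vehicle, Cxcl9 ran from -0.14 to 0.48 in Dnmt3aKO and from -0.60 to 0.12 in Tet2KO, and Cxcl10 from -0.30 to 0.29 in Jak2VF and from -0.87 to 0.086 in WT. Against WT with LDL, Cxcl9 ran from -0.83 to 0.98 and Cxcl10 from -0.57 to 0.22 in Dnmt3aKO, Cxcl9 from -1.28 to 0.52 and Cxcl16 from -0.21 to 0.092 in Tet2KO, and Cxcl3 from -0.17 to 0.018 in Jak2VF. Against WT with vehicle, Cxcl16 ran from -0.19 to 0.016 in Dnmt3aKO, Cxcl1 from -0.046 to 0.10 in Tet2KO and Cxcl9 from -0.37 to 0.17 in Jak2VF. In interactions, Cxcl14 ran from -0.10 to 0.059 for Tet2KO, and Cxcl2 from -0.45 to 0.20 and Cxcl10 from -0.034 to 0.92 for Jak2VF. In batch 1, Cxcl9 ran from -1.35 to 1.95 and Cxcl14 from -0.35 to 0.087 with LDL in Tet2KO, Cxcl14 from -0.19 to 0.22 and Cxcl16 from -0.0012 to 0.34 with LDL in WT, and Cxcl9 from -0.55 to 1.24 in Tet2KO against WT with vehicle. In its interaction, Cxcl9 ran from -0.46 to 2.83, Cxcl10 from -0.26 to 1.04, Cxcl14 from -0.39 to 0.087 and Cxcl16 from -0.14 to 0.19.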
